A study of Mus musculus with 35 samples.

Results

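The genes described here are 35 ribosome biogenesis genes, which encode nucleolar proteins that make ribosomal RNA and assemble it into ribosomal subunits. They were taken by function from a list of symbols that was drawn up with earlier results of these data known, no threshold on a measured value enters that rule, and all 35 were found among the 53379 genes of the count table. By role they comprised 3 proteins of box C/D snoRNPs, 2 genes for box H/ACA snoRNPs and their chaperone, 5 for RNA polymerase I and rDNA transcription, 2 abundant nucleolar proteins, 13 small subunit processome proteins and 10 factors of large subunit assembly. Each snoRNP is a particle of a small nucleolar RNA and proteins, and most of them modify ribosomal RNA while some act in cleavage of its precursor.

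RNA was sequenced from myeloid-derived suppressor cells (MDSC) of female wild-type C57BL/6 mice, whose age the labels do not give, all of which carried an orthotopic tumor of T110299 cells. T110299 is 1 cell line from the KPC model, in which Ptf1a-Cre acts in the pancreas on engineered alleles that include deletion and R172H mutation of p53, and the host mice carried none of these alleles. Mice received 50 µg of poly(I:C) complexed with in vivo-jetPEI (poly(I:C)c, a double-stranded RNA that cytosolic receptors sense) by vein on day 18 and day 20, and the control mice are labelled untreated. Granulocytic PMN-MDSC (CD11b+ Ly6C low Ly6G+) and monocytic M-MDSC (CD11b+ Ly6C high Ly6G-) were sorted from spleen and tumor, and bulk tumor of untreated mice was lysed without sorting. Each group had 4 libraries, except that splenic PMN-MDSC and tumor M-MDSC of treated mice had 3, a further library of the latter holding 10 counts and not being used. The mice of a group are numbered in the labels, which say nothing else of how replicates were made, so p-values measure the spread between these libraries. Populations of 1 treatment share these numbers in the labels, so they may come from the same mice, and the fits treat their libraries as independent.

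The 30 MDSC libraries held 793070 to 4357105 counts and the bulk tumor libraries 3771590 to 8886115. Levels are given as CPM, the counts of a gene scaled to 1000000 counts in its library. A list or gene level called log2(CPM + 1) is the mean of that quantity over the genes of the list. Fold changes come from edgeR with TMM scaling and are log2 values ± SE, and a member was called higher or lower at a Benjamini-Hochberg adjusted p under 0.05 over all genes tested. Counts of genes whose groups do not overlap use TMM-scaled CPM, and remarks on overlap beside printed levels refer to those levels. In sorted samples and in bulk tumor, fewer cells of a type and less RNA per cell cannot be told apart.

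The labels were checked against marker genes, and libraries sorted as PMN-MDSC from tumor stood apart. Ly6g, the antigen used in the sort, was at 0, 1.63, 9.19 and 0.948 CPM in tumor PMN-MDSC of untreated mice and at 11, 27.6, 5.02 and 76.2 CPM in those of treated mice, against 34.5, 51.8, 84.7 and 49.8 and 292, 226 and 335 CPM in the splenic cells. The list of 10 neutrophil genes stood at 5.56 to 7.95 (untreated) and 8.03 to 9.95 (treated) log2(CPM + 1) in tumor PMN-MDSC, against 10.05 to 10.85 and 11.31 to 11.72 in spleen. The list of 9 macrophage genes ran the other way, at 8.53 to 8.94 and 8.36 to 9.44 in tumor against 5.05 to 6.59 and 3.0 to 3.77 in spleen. Replicate 1 of splenic PMN-MDSC from untreated mice held more macrophage (6.59) and monocyte (6.25) message than the other 3. Replicate 4 of splenic M-MDSC from treated mice held the most B and plasma cell message of any library (6.75), and replicate 2 of tumor M-MDSC from treated mice was at 2.98 CPM of Ly6c2 and 925 CPM of Adgre1. The 3 libraries of splenic PMN-MDSC from treated mice had 14456 to 15692 genes detected, against 17684 to 20072 in those from untreated mice, and 33.1% to 37.9% of counts in their 100 highest genes, against 28.4% to 31.1%. Poly(I:C)c raised 9 of 10 interferon-stimulated genes in splenic PMN-MDSC, 9 in tumor PMN-MDSC, 10 in splenic M-MDSC and 6 in tumor M-MDSC.

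As background, ribosome production starts when RNA polymerase I transcribes the rDNA repeats in the nucleolus. snoRNPs then guide methylation and pseudouridylation of the precursor, the small subunit processome folds and cuts its 5′ part, and other factors build the large subunit around the rest. Growing and dividing cells need many ribosomes, and the transcription factor Myc, which binds the letters CACGTG as a dimer with Max, is a known activator of these genes. Neutrophils shut down much of this machinery as they mature, whereas monocytes and macrophages keep making ribosomes.

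RefSeq promoters (250 bases before to 50 after a start site, GRCm38.p6) were found for 29 of the 35 members by symbol, and those of Bop1, Fbl, Nol6, Npm1, Rrp12 and Tcof1 were not. CACGTG, which reads the same on both strands, occurred in the promoters of 7 of 29 members (24.1%) against 2187 of 27025 genes (8.09%), and a match is a description, not a binding site. Median GC content was 58.7% for promoters of members and 52.7% for all. The 7 windows are shown because CACGTG is the motif of the Myc network that is described with the members. Each is printed 5′ to 3′ on the strand of the gene, with the motif in capitals and up to 12 bases on either side within the promoter. They lie at chr1:34439696-34439725 (Imp4), chr6:125131811-125131840 (Nop2), chr10:88826765-88826789 (Utp20), chr11:3963965-3963994 (Pes1), chr11:72441355-72441376 (Mybbp1a), chr11:93885769-93885798 (Utp18) and chr17:71616220-71616249 (Wdr43), with Utp20 and Utp18 on the minus strand. Counted from the start site as 0, the motif began at -121 in Imp4, -60 in Nop2 and -20 in Utp18, before the start of transcription. It began at 2 in Pes1, 17 in Wdr43, 37 in Utp20 and 40 in Mybbp1a, after it.
Imp4: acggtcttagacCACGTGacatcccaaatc
Nop2: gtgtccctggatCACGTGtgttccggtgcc
Utp18: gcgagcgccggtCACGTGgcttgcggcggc
Pes1: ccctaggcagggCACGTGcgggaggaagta
Wdr43: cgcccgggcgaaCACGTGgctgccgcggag
Utp20: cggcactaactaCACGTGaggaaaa
Mybbp1a: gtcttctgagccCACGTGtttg
Some members hold genes of small nucleolar RNAs within them. In the annotation, 6 of 35 members (17.1%) contain 19 snoRNA genes on the same strand, against 279 of 21951 protein-coding genes (1.27%). These hosts were Nop56 with 5 snoRNA genes, Nop58 with 4, Ncl, Wdr43 and Gnl3 with 3 each, and Dkc1 with 1.

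The level of the 35 genes was lowest in splenic PMN-MDSC. Their mean log2(CPM + 1) was 4.50, 3.37, 3.34 and 3.56 in the 4 libraries of untreated mice and 2.51, 2.17 and 2.35 in the 3 of treated mice. Splenic M-MDSC stood at 5.34, 5.18, 5.35 and 5.28 without treatment and at 5.14, 5.17, 5.12 and 5.45 with it. All splenic PMN-MDSC libraries lay below all libraries of every other group, except that replicate 1 of untreated mice, at 4.50, lay above the lowest tumor PMN-MDSC library. Without it the mean of its group was 3.43 in place of 3.69. Tumor PMN-MDSC stood at 5.26, 4.93, 5.16 and 5.15 in untreated and 5.19, 5.2, 4.76 and 4.37 in treated mice, and tumor M-MDSC at 5.32, 5.39, 5.43 and 5.58 and 5.52, 5.19 and 5.21. Bulk tumor, at 6.56, 6.37, 6.01 and 6.01, lay above every MDSC library. The summed mean level of the members was 856 CPM in splenic PMN-MDSC of untreated mice and 439 CPM in those of treated mice, against 2104 CPM and 2129 CPM in splenic M-MDSC and 6953 CPM in bulk tumor.

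**Figure D1:**
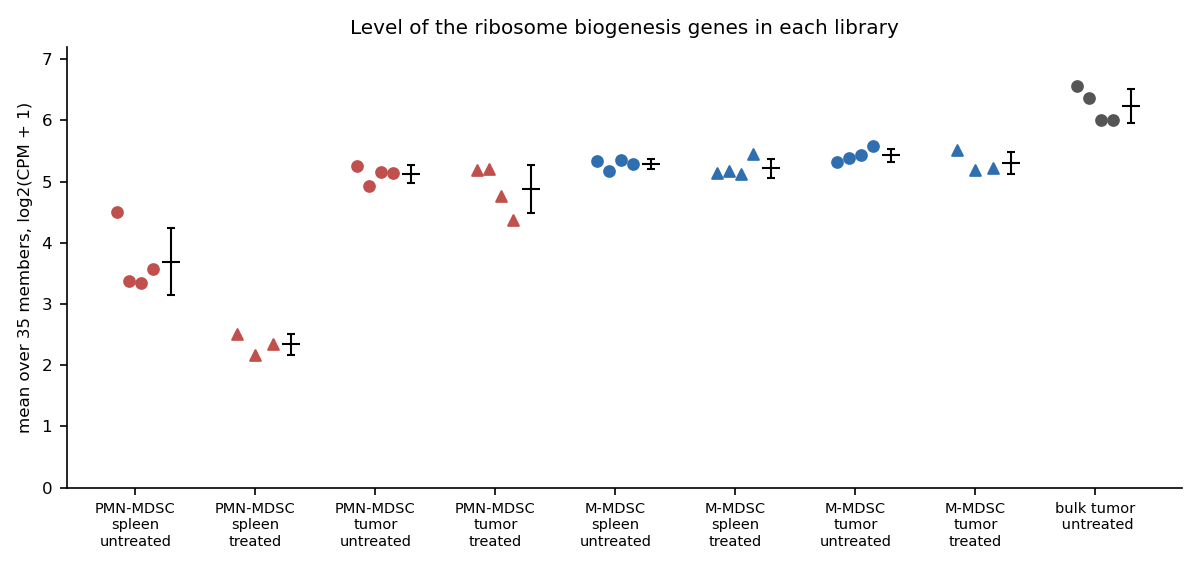
Mean log2(CPM + 1) of the 35 ribosome biogenesis genes (y axis) in each of the 34 libraries (points), by group (x axis), with group mean and SD beside the points. Splenic PMN-MDSC sit lowest, at 2.17 to 2.51 with treatment and 3.34 to 4.50 without, and bulk tumor highest, at 6.01 to 6.56.

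Of the 35 members, 34 had their lowest mean over the 8 MDSC groups in splenic PMN-MDSC of treated mice. The exception was Polr1a, the largest subunit of RNA polymerase I, which was highest there and lowest in splenic M-MDSC of untreated mice. The distance between the lowest and highest group mean of log2(CPM + 1) ran from 1.29 for Imp4, a U3 snoRNP protein, to 4.89 for Heatr1, a processome protein also needed for RNA polymerase I transcription. Nop2 (1.45) and Nip7 (1.68), both large subunit factors, also varied little, and Tcof1 (4.47) and Noc3l (4.42) varied much. In splenic PMN-MDSC of treated mice 5 members had a library at 0 counts (Fbl, Rrp9, Utp20, Nop16 and Noc3l), which occurred in no other group, and 0 members were at 0 in all libraries.

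**Figure D2:**
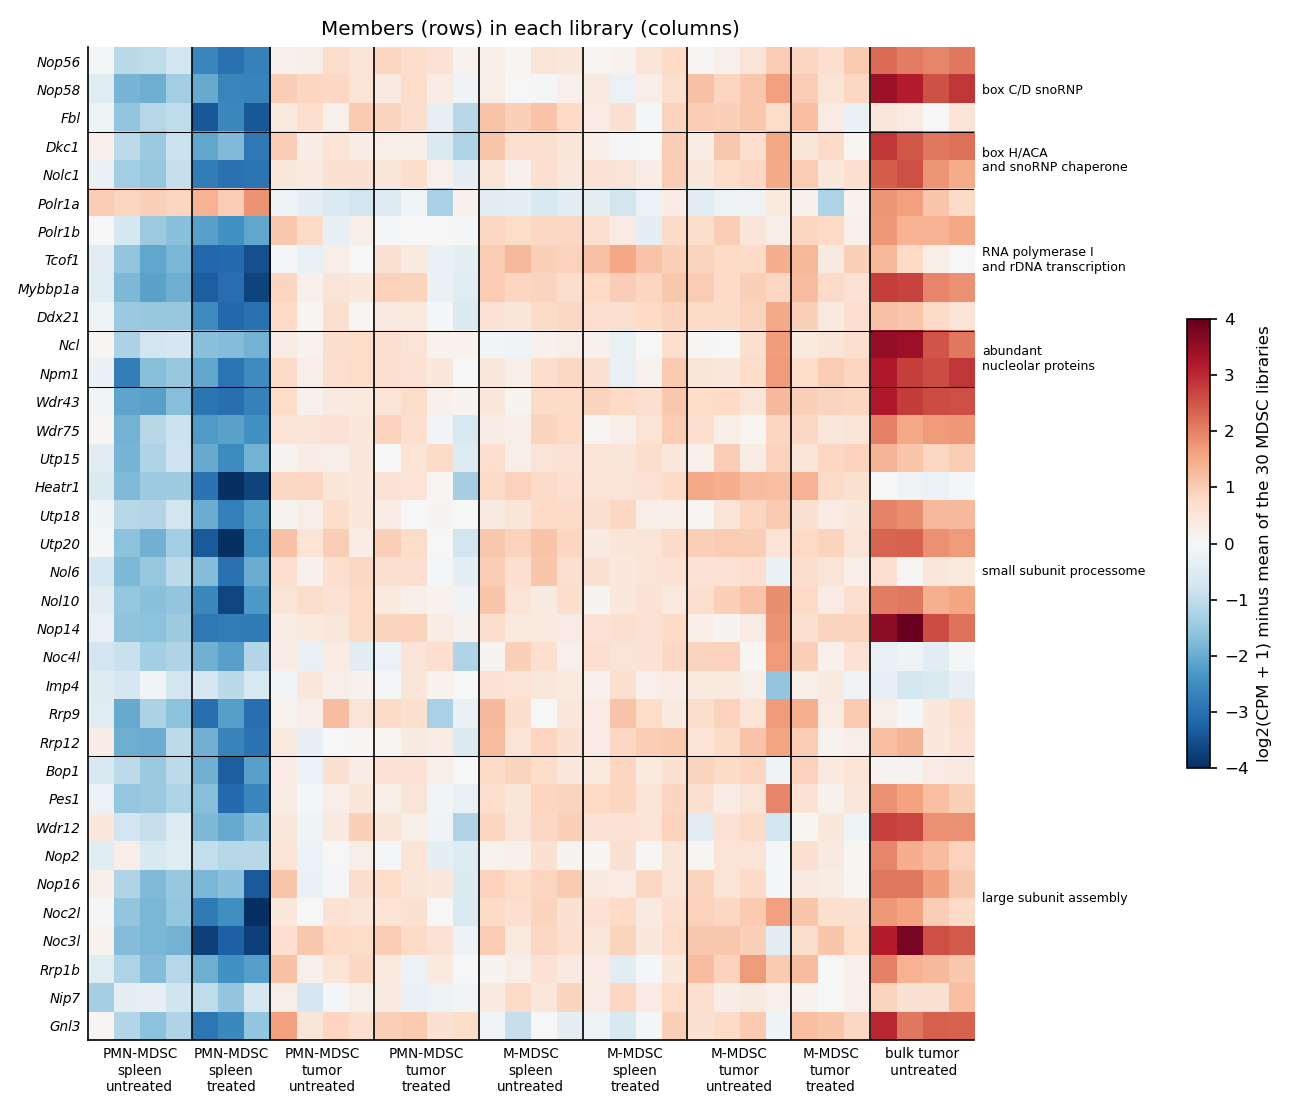
Difference between log2(CPM + 1) of each member (rows, ordered by role) in each of the 34 libraries (columns, by group) and the mean of that member over the 30 MDSC libraries. The 7 columns of splenic PMN-MDSC are blue for nearly all members except Polr1a, which is red there, and the bulk tumor columns are red for most members but not for Fbl, Heatr1, Noc4l, Imp4, Rrp9, Nol6 and Bop1.

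Per length, which allows genes to be compared, Ncl (nucleolin, a chaperone of ribosomal RNA) was the most abundant member in 6 of 9 groups. Its FPKM, computed here from counts and summed exon length, was 24.7 in splenic PMN-MDSC of untreated mice, 52 in tumor PMN-MDSC, 63.2 in tumor M-MDSC and 300.0 in bulk tumor of untreated mice. In splenic PMN-MDSC of treated mice Polr1a, at 15.4 FPKM, stood above Ncl at 10.9 and Npm1 at 4.9. In splenic M-MDSC of untreated mice Noc2l (43.4 FPKM), Npm1 (43.1), Tcof1 (38.7) and Ncl (38.5) led.

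PMN-MDSC were first compared with M-MDSC from the same organ, which asks how the 2 sorted populations differ. In spleens of untreated mice 32 of 35 members passed the filter on low counts (a mean of 25 counts over the libraries compared), and of these 28 were lower and 1 was higher in PMN-MDSC. Over all genes tested 33.4% were lower and 30.9% higher. The median log2 fold change was -1.37 for the members tested and -0.08 for all genes tested, and 23 members did not overlap between the groups, against 59.2% of all genes. Polr1b, Nip7 and Rrp9 did not pass the filter. In treated mice 28 members passed and 27 were lower and 1 higher, against 32.4% and 28.8% of all genes, with a median of -2.80 against -0.11. All 28 did not overlap between the groups, as did 63.2% of all genes. The filter takes the mean over both groups, for members and all other genes alike. A member with few counts in PMN-MDSC could thus be tested only if it was higher in M-MDSC. The counts, medians and overlaps given here, and the counts by role below, are in part set by that. These 2 comparisons share no library. Of the 28 and 27 members lower, 24 were shared (85.7% of the 28 and 88.9% of the 27). Every member tested in treated mice was called, so sharing depended only on which members passed the filter. The same share over all genes was not computed. Dkc1, Fbl, Nop16 and Wdr75 were called lower in untreated mice alone and did not pass the filter in treated mice, and Gnl3, Ncl and Nop2 were called lower in treated mice alone. The test of whether these 3 differ between conditions, the interaction given further on, did not pass (adjusted p = 0.124, 0.0786 and 0.309).

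Among rDNA transcription factors, Tcof1 (treacle, which recruits RNA polymerase I factors to rDNA) showed the lowest fold change in untreated spleens. Its level was 70.8, 32.4, 22.4 and 27 CPM in PMN-MDSC and 199, 242, 189 and 186 CPM in M-MDSC of untreated mice. Every PMN-MDSC library lay below every M-MDSC library (log2 fold change -2.05 ± 0.32, adjusted p = 0.000439). In treated mice the 2 populations held 10.2, 10.4 and 7.56 and 223, 287, 215 and 190.2 CPM (-4.04 ± 0.26, adjusted p = 6.28e-05). Mybbp1a, a Myb-binding nucleolar protein that takes part in rRNA processing, stood at 42.4, 16.4, 12.5 and 14.4 CPM in PMN-MDSC and 122, 109, 111 and 96.9 CPM in M-MDSC of untreated mice (-1.97 ± 0.34, adjusted p = 0.000769). Treated mice held 5.12, 6.31 and 3.6 and 103, 118, 107 and 126 CPM of it (-3.92 ± 0.26, adjusted p = 6.28e-05), again without overlap. The RNA helicase Ddx21 was lower in both, with log2 fold changes of -1.36 (untreated, adjusted p = 0.00219) and -3.15 (treated, adjusted p = 6.28e-05).

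Polr1a was the 1 member higher in PMN-MDSC. It stood at 133, 122, 130.4 and 122 CPM in splenic PMN-MDSC and 50.1, 51.1, 43.9 and 49.8 CPM in splenic M-MDSC of untreated mice. The 4 PMN-MDSC libraries lay together and more than a factor of 2 above all M-MDSC libraries (log2 fold change 1.76 ± 0.12, adjusted p = 3.08e-06). Treated mice held 177, 136 and 233 CPM in PMN-MDSC and 51.3, 39.9, 57.1 and 81.8 CPM in M-MDSC (2.22 ± 0.27, adjusted p = 0.000269). Polr1b, the second largest subunit of the same enzyme, went the other way in level, with 6.37, 3.49, 1.69 and 1.28 CPM in PMN-MDSC and 12.1, 11.1, 12 and 11.9 CPM in M-MDSC of untreated mice, and 0.64, 0.371 and 0.72 and 10.7, 8.15, 4.73 and 11.5 CPM in treated mice, but did not pass the filter in either comparison. Polr1a lies on the plus strand at chr6:71909053-71984935 and shares exon sequence with the opposite-strand gene Gm26628, which held 0, 1.49, 0 and 0 CPM in splenic PMN-MDSC of untreated mice and 0, 0 and 0 CPM in those of treated mice. Counting was by strand, and 15 members have such an opposite-strand neighbour.

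**Figure D3:**
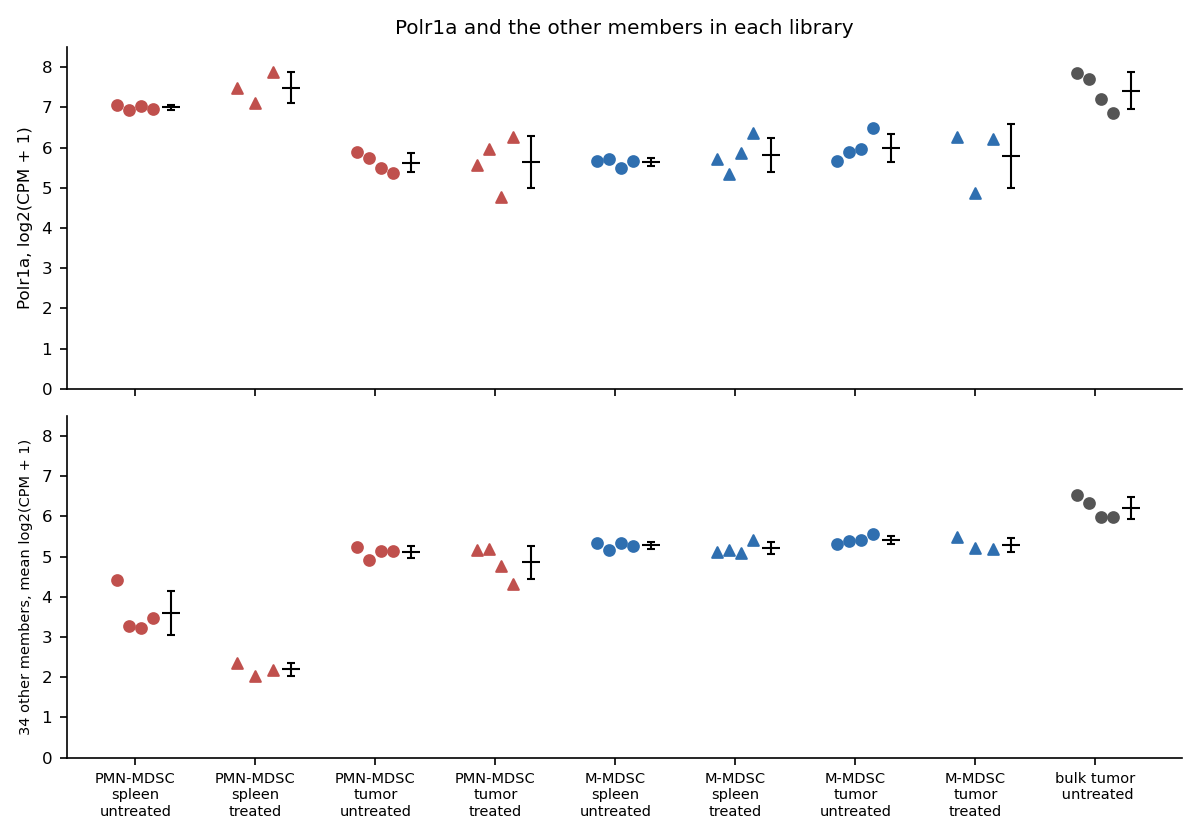
Level of Polr1a (top) and mean level of the other 34 members (bottom), both as log2(CPM + 1) on the y axis, in each library (points) by group (x axis), with group mean and SD beside the points. In splenic PMN-MDSC Polr1a stands above all other MDSC libraries, while the other members stand at 3.23 to 4.42 (untreated) and 2.03 to 2.36 (treated), below every other MDSC library except 1 tumor PMN-MDSC library of treated mice at 4.31.

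Box C/D snoRNPs methylate ribosomal RNA, with Fbl (fibrillarin) as the methylase and Nop56 and Nop58 as core proteins. Nop56 stood at 34.8, 16.4, 17.3 and 20.9 CPM in PMN-MDSC and 42.7, 38.6, 52.6 and 49.8 CPM in M-MDSC of untreated spleens, which did not overlap in CPM but did after TMM scaling (log2 fold change -0.66 ± 0.23, adjusted p = 0.0277). In treated mice the levels were 5.12, 3.71 and 4.68 and 38.3, 40.2, 52.3 and 64.1 CPM, far apart (-2.87 ± 0.28, adjusted p = 0.000134). Nop58 differed by -1.08 ± 0.31, adjusted p = 0.0117, in untreated and -2.45 ± 0.33, adjusted p = 0.000492, in treated mice. Fbl stood at 8.22, 2.49, 3.73 and 4.17 against 22.2, 19.5, 22.3 and 17.4 CPM in untreated mice (-1.69 ± 0.31, adjusted p = 0.00107). Treated splenic PMN-MDSC held 2 counts of Fbl in all, 0 in 2 of 3 libraries, against 12.2, 15.1, 9.12 and 18.6 CPM in M-MDSC, and Fbl did not pass the filter there.

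Of the H/ACA side, Dkc1 (dyskerin, the pseudouridine synthase) stood at 13.3, 4.98, 3.39 and 5.78 CPM in PMN-MDSC and 25.8, 18.6, 18.2 and 16.4 CPM in M-MDSC of untreated spleens (-1.11 ± 0.37, adjusted p = 0.0243). It did not pass the filter in treated mice, where it stood at 1.92, 2.6 and 0.72 and 13.8, 10.8, 11.5 and 23.4 CPM. Nolc1, a chaperone of snoRNPs also called Nopp140, differed by -1.05 ± 0.26, adjusted p = 0.00554, in untreated and -3.20 ± 0.25, adjusted p = 7.83e-05, in treated mice. Both abundant nucleolar proteins were lower in treated mice. Ncl stood at 119, 112 and 102 CPM in PMN-MDSC and 426, 307, 386 and 603 CPM in M-MDSC of treated mice (-1.38 ± 0.25, adjusted p = 0.00181), but at 387, 155, 224 and 239 and 354, 343, 428 and 443 CPM in untreated mice, where the groups overlapped (-0.28 ± 0.22, adjusted p = 0.299). Npm1 (nucleophosmin) was lower in both, with -1.51 ± 0.40, adjusted p = 0.00838, in untreated and -2.47 ± 0.36, adjusted p = 0.000647, in treated mice.

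The small subunit processome had 12 of 12 tested members lower in untreated and 11 of 11 in treated spleens. Heatr1 stood at 54.7, 23.4, 29.1 and 29.9 CPM in PMN-MDSC against 140.3, 154, 141 and 129 CPM in M-MDSC of untreated mice (-1.67 ± 0.23, adjusted p = 0.000185). In treated mice it stood at 9.61, 3.34 and 5.4 against 117, 117, 123 and 144 CPM (-3.87 ± 0.30, adjusted p = 7.83e-05). No library of either population came near the other in either condition. Nol6, a processome protein, was among the 3 lowest in untreated mice (-1.78 ± 0.24, adjusted p = 0.000206), and Imp4 was the least changed of those called (-0.65 ± 0.19, adjusted p = 0.0121, untreated and -0.63 ± 0.22, adjusted p = 0.039, treated).

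Large subunit factors had 7 of 9 tested members lower in untreated and 8 of 8 in treated spleens. Pes1 and Bop1, partners in the PeBoW complex, were lower, with log2 fold changes of -1.43 (adjusted p = 0.00153) and -1.47 (adjusted p = 0.000347) in untreated mice and -2.81 (adjusted p = 0.000244) and -2.79 (adjusted p = 0.000673) in treated mice. Gnl3 (nucleostemin) stood at 17, 6.47, 4.4 and 6.42 CPM in PMN-MDSC and 14.8, 7.9, 15.7 and 12.1 CPM in M-MDSC of untreated mice, which overlapped (-0.16 ± 0.40, adjusted p = 0.747), and at 1.28, 1.86 and 4.68 and 13.8, 10.2, 14.9 and 31.8 CPM in treated mice, which did not (-2.10 ± 0.56, adjusted p = 0.0114). Nop2, an rRNA methyltransferase, differed by -0.23 ± 0.26, adjusted p = 0.452, in untreated and -0.93 ± 0.25, adjusted p = 0.0122, in treated mice. Noc3l, which escorts pre-ribosomes, held 1 count in all 3 PMN-MDSC libraries of treated mice together, against 17, 23.6, 16.5 and 20.8 CPM in M-MDSC (adjusted p = 0.000149), so that no fold change is given. In untreated mice it stood at 13.5, 2.99, 2.71 and 2.57 CPM in PMN-MDSC and 25.8, 16.3, 22.3 and 20.2 CPM in M-MDSC (-1.51 ± 0.48, adjusted p = 0.0198).

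Without replicate 1 of splenic PMN-MDSC of untreated mice, 31 members were called in untreated spleens in place of 29. Without replicate 4 of splenic M-MDSC of treated mice, 25 were called in treated spleens in place of 28. The neutrophil markers, at 4.83 to 7.42 in splenic M-MDSC, moved with these differences, as did the monocyte markers and the cell cycle list. The monocyte markers stood at 4.75 to 6.25 (untreated) and 3.20 to 3.61 (treated) in splenic PMN-MDSC. In splenic M-MDSC they stood at 7.92 to 8.46 and 6.94 to 7.79. The cell cycle list stood at 3.12 to 3.49 and 1.61 to 4.08 against 4.26 to 5.14 and 4.30 to 6.02. A list of 10 neutrophil precursor genes stood at 4.05 to 4.81 in splenic PMN-MDSC and 5.66 to 6.74 in splenic M-MDSC of untreated mice. In treated mice its means were 4.55 and 5.66, and the libraries overlapped. The part of these lists in the result was not tested.

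In tumors the same comparison gave few calls. Of 32 members that passed the filter in untreated mice, 4 were lower and 0 higher in PMN-MDSC, against 5.73% and 7.25% of all genes tested, with a median of -0.32 against -0.01. The 4 were Rrp12 (-1.0 ± 0.29, adjusted p = 0.0359), Tcof1 (-0.97 ± 0.19, adjusted p = 0.00527), Noc2l (-0.70 ± 0.20, adjusted p = 0.0372) and Heatr1 (-0.66 ± 0.16, adjusted p = 0.0151). Tcof1 stood at 92.8, 79.6, 116 and 99.6 CPM in tumor PMN-MDSC and 183, 171, 166 and 267 CPM in tumor M-MDSC, without overlap. In treated mice 0 of 33 members were called in either direction, against 0% of all genes lower and 0.38% higher. Of these, 3 members had an unadjusted p under 0.05, and DESeq2 called 0. The median of the 33 was -0.33. Polr1a stood at 58.2, 52, 44.4 and 40.3 CPM in PMN-MDSC and 49.5, 58, 61 and 88.3 CPM in M-MDSC of untreated tumors and overlapped (-0.33 ± 0.21, adjusted p = 0.336). The count of 4 in untreated tumors fell to 2 without replicate 2 of tumor PMN-MDSC, and to 1 without replicate 3 or without replicate 4. Tumor PMN-MDSC libraries held the macrophage message and low Ly6g given above, and its part in this comparison was not tested. In treated tumors, replicate 2 of M-MDSC held the low Ly6c2 and high Adgre1 given above and the highest macrophage level of any library (9.95). The part of that library was not tested either.

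**Figure D4:**
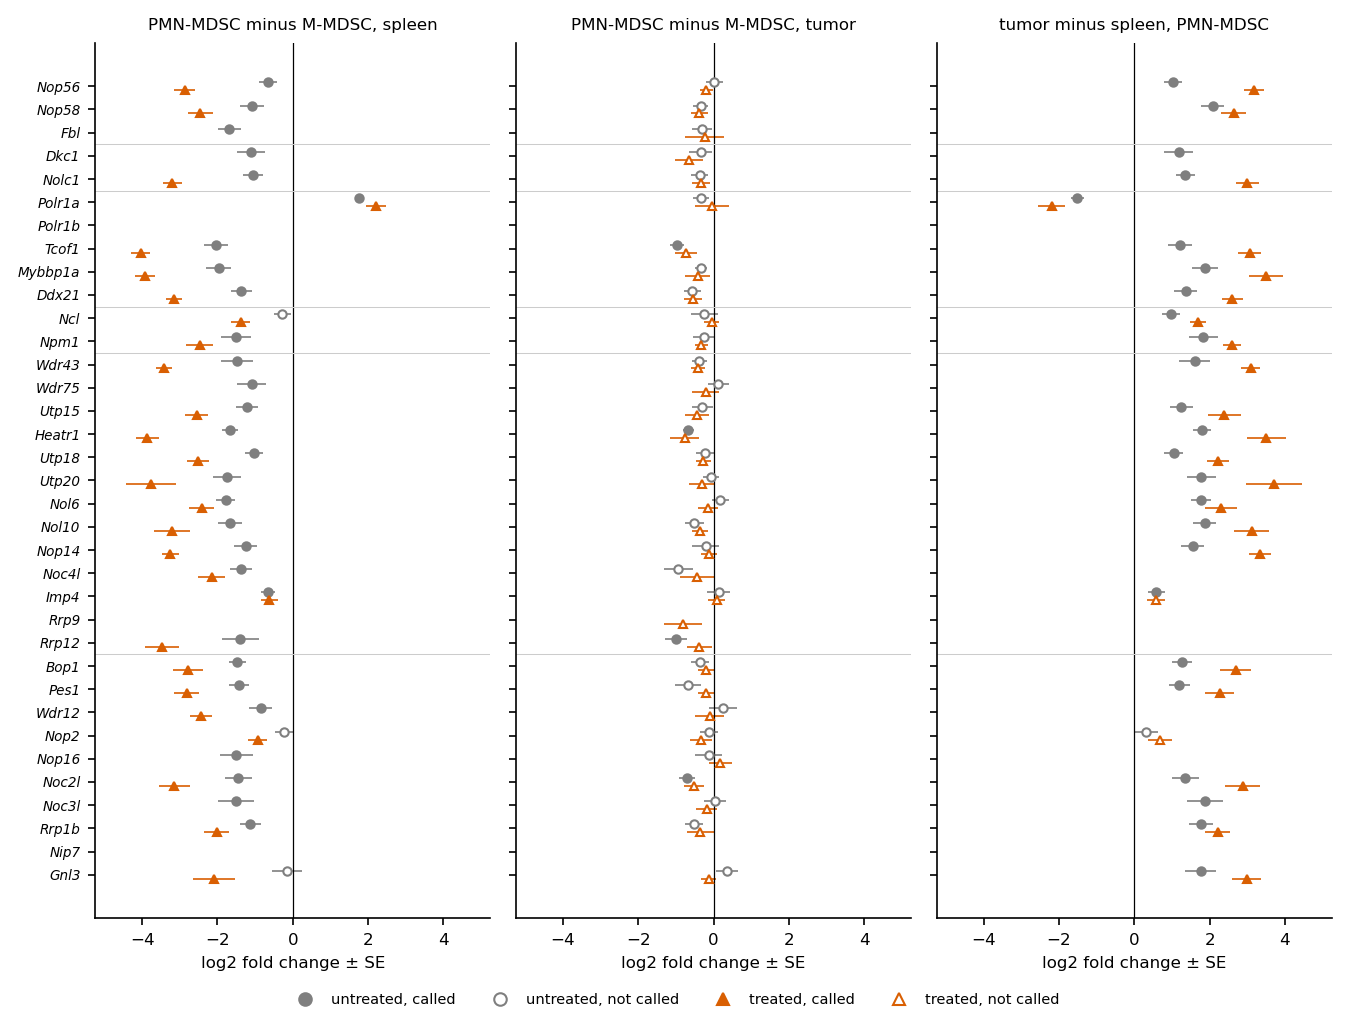
Log2 fold changes ± SE (x axis) of the members (rows, ordered by role) between PMN-MDSC and M-MDSC in spleen (left) and tumor (middle), and between tumor and spleen in PMN-MDSC (right), in untreated (grey circles) and treated (orange triangles) mice, filled where called. Nearly all members lie left of 0 in spleen and right of 0 for tumor against spleen, farther out in treated mice, and Polr1a lies on the opposite side, while in tumors the points lie near 0. Noc3l is left out for treated spleens, where PMN-MDSC held 1 count, and members that did not pass the filter have no point.

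Tumor and spleen were then compared within each cell type. In PMN-MDSC of untreated mice 26 members passed the filter, of which 24 were higher and 1 lower in tumor, against 29.4% and 29.7% of all genes tested, with a median of 1.36 against 0.01. In treated mice 25 passed, of which 22 were higher and 1 lower, against 28.2% and 25.4%, with a median of 2.69 against 0.04. As above, a member with few counts in splenic PMN-MDSC could pass the filter only through tumor. The counts and medians are in part set by that. Between the groups 24 of 26 (untreated) and 25 of 25 (treated) did not overlap, as did 55.1% and 56.5% of all genes. The 22 were all among the 24 (91.7% of the 24 and 100% of the 22), and these 2 comparisons share no library. Nearly all members tested were called in both, so a large share follows, and the share over all genes was not computed. Dkc1, which did not pass the filter in treated mice, and Imp4 were called in untreated mice alone, and the interaction for Imp4 did not pass (-0.0031 ± 0.32, adjusted p = 0.998). The comparison with splenic M-MDSC and this one share the splenic PMN-MDSC libraries.

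Nop58 had the highest fold change in untreated mice. It stood at 18.3, 6.47, 6.1 and 9.31 CPM in spleen and 53.4, 48.2, 47.6 and 38.9 CPM in tumor PMN-MDSC, without overlap (2.08 ± 0.30, adjusted p = 0.000241). In treated mice it stood at 5.76, 3.34 and 3.24 and 34, 44.4, 32.8 and 23.7 CPM (2.64 ± 0.33, adjusted p = 0.00041). Nop56 rose from spleen to tumor by 1.02 ± 0.24, adjusted p = 0.00403, in untreated mice and, from 5.12, 3.71 and 4.68 to 65.7, 59.4, 54.7 and 40.1 CPM, by 3.18 ± 0.26, adjusted p = 0.000127, in treated mice. Noc3l, which followed in untreated mice, stood at 20.0, 27.1, 22 and 20.9 CPM in tumor (1.87 ± 0.47, adjusted p = 0.00622), and at 25.7, 21.8, 18.7 and 10.3 CPM in treated tumors (adjusted p = 0.000283), where no fold change is given. Nol10, a processome protein, was higher by 1.87 ± 0.31, adjusted p = 0.000531, in untreated mice.

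Utp20, a processome scaffold, and Heatr1 had the highest fold changes of treated mice apart from Noc3l. Utp20 stood at 1.92, 0 and 4.32 CPM in spleen and 56.4, 48.5, 28.3 and 16.8 CPM in tumor PMN-MDSC (3.70 ± 0.75, adjusted p = 0.00356). Heatr1 stood at 146, 145, 115 and 110.5 CPM in tumor PMN-MDSC of untreated (1.79 ± 0.24, adjusted p = 0.000125) and 122, 120.1, 87.1 and 31.9 CPM in those of treated mice (3.50 ± 0.52, adjusted p = 0.000802). The lowest of these tumor libraries, treated replicate 4 at 31.9 CPM, also had the highest Ly6g level of its group and the lowest member level. Ncl and Npm1 were higher in tumor by 0.97 (adjusted p = 0.00517) and 1.83 (adjusted p = 0.00217) in untreated mice and by 1.69 (adjusted p = 0.000393) and 2.60 (adjusted p = 0.000153) in treated mice.

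The same direction held for Nolc1 (1.35 ± 0.25, adjusted p = 0.000988, untreated and 3.01 ± 0.31, adjusted p = 0.000191, treated) and for Pes1 (1.19 ± 0.28, adjusted p = 0.00405, and 2.27 ± 0.38, adjusted p = 0.00145). Bop1 (1.27 ± 0.26, adjusted p = 0.00205, and 2.69 ± 0.41, adjusted p = 0.000971) and Gnl3 (1.76 ± 0.41, adjusted p = 0.0039, and 2.98 ± 0.40, adjusted p = 0.000508) were likewise higher in both. Dkc1 was higher in untreated mice (1.18 ± 0.38, adjusted p = 0.0214), and Nop2 was called in neither (0.32 ± 0.30, adjusted p = 0.379, and 0.68 ± 0.32, adjusted p = 0.0961). Polr1b and Fbl did not pass the filter. Their levels in tumor PMN-MDSC were 14.6, 11.4, 4.8 and 7.59 CPM and 12.7, 15.7, 11.2 and 20.9 CPM in untreated mice. Polr1a was lower in tumor PMN-MDSC, at 58.2, 52, 44.4 and 40.3 CPM in untreated and 46.3, 61.8, 26.5 and 75.8 CPM in treated mice, below all splenic PMN-MDSC libraries (-1.52 ± 0.17, adjusted p = 4.78e-05, and -2.19 ± 0.36, adjusted p = 0.00125).

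Marker lists moved with the organ. Of 10 neutrophil genes 10 were lower in tumor PMN-MDSC of untreated and 9 in those of treated mice, and 9 and 9 of 9 macrophage genes were higher, and the part of these cells in the difference was not tested. The epithelial list stood at 2.47 to 4.49 and 2.15 to 3.05 in tumor against at most 0.99 in splenic PMN-MDSC. The monocyte list stood at 7.19 to 7.74 (untreated) and 6.69 to 7.96 (treated) in tumor against 4.75 to 6.25 and 3.20 to 3.61 in spleen. The part of these lists was not tested either. By replicate, the neutrophil list stood at 5.56, 7.50, 7.95 and 6.43 in tumor PMN-MDSC of untreated mice and 8.03, 9.16, 8.08 and 9.95 in those of treated mice, with the member levels given above. Without replicate 1 of splenic PMN-MDSC of untreated mice, 24 members were called in place of 25.

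**Figure D5:**
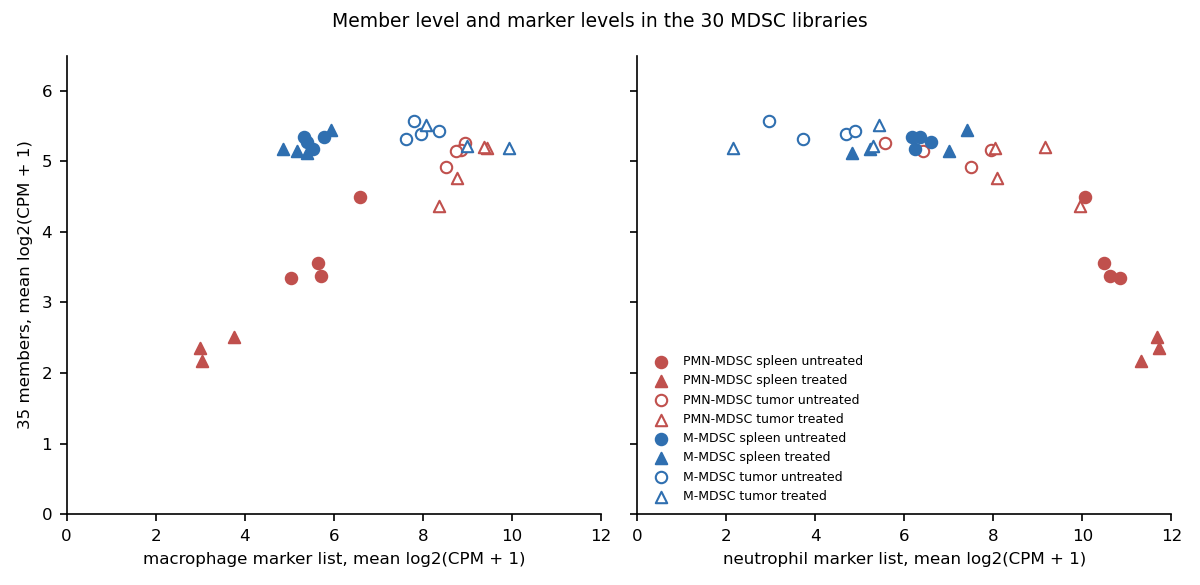
Mean log2(CPM + 1) of the 35 members (y axis) against that of the macrophage list (left) and the neutrophil list (right, x axes) in the 30 MDSC libraries, by group. Splenic PMN-MDSC (filled red) have the lowest member levels, except untreated replicate 1, at 4.50, above the lowest tumor PMN-MDSC library, the most neutrophil message, at 10.05 to 11.72, and macrophage message of 3.0 to 6.59, while splenic M-MDSC (filled blue) reach member levels of 5.12 to 5.45 at macrophage levels of 4.85 to 5.94.

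In M-MDSC the organs differed less. In untreated mice 35 members passed the filter, and 8 were higher and 0 lower in tumor, against 15.7% and 12.7% of all genes tested, with a median of 0.44 against 0.02. The highest were Nop58, at 31.1, 26, 25.2 and 30.2 CPM in spleen and 60.5, 48.5, 56.3 and 83.2 CPM in tumor (1.37 ± 0.19, adjusted p = 0.00022), Gnl3, at 14.8, 7.9, 15.7 and 12.1 and 24.7, 27.6, 33.6 and 13.9 CPM (1.29 ± 0.27, adjusted p = 0.0039), and Rrp1b, a large subunit factor (1.21 ± 0.19, adjusted p = 0.000607). Gnl3 overlapped by 1 library in CPM but not after TMM scaling. The others were Heatr1 (0.84 ± 0.13, adjusted p = 0.000456), Nolc1 (0.71 ± 0.23, adjusted p = 0.0358), Noc2l (0.66 ± 0.19, adjusted p = 0.0202), Polr1a (0.63 ± 0.18, adjusted p = 0.0238) and Ddx21 (0.61 ± 0.18, adjusted p = 0.0277). Polr1a was thus called higher in tumor among M-MDSC and lower in tumor among PMN-MDSC. Without replicate 4 of splenic M-MDSC of untreated mice 4 were called. In treated mice tumor replicate 2 held the low Ly6c2 and high Adgre1 given above. There 0 of 35 members were called, against 5.11% higher and 0.764% lower. Of these members, 3 had an unadjusted p under 0.05, and DESeq2 called 0. Among those not called, Ncl differed by 0.98 (adjusted p = 0.0613) and 0.41 (adjusted p = 0.339) in untreated and treated mice. The cell cycle list, with 11 of 15 tested genes lower in tumor M-MDSC of untreated mice, went the other way. The neutrophil precursor list of these mice stood at 5.66 to 6.74 in splenic and 1.63 to 4.46 in tumor M-MDSC. In the same comparison the macrophage list stood at 5.32 to 5.79 in spleen and 7.62 to 8.36 in tumor, the epithelial list at 0.42 to 1.11 and 1.57 to 3.69, and the neutrophil list at 6.17 to 6.60 and 2.96 to 4.90. Their part in the result was not tested.

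Treatment with poly(I:C)c was compared within each sorted population. In splenic PMN-MDSC 17 members passed the filter, of which 6 were lower and 1 was higher with treatment, against 5.52% and 6.1% of all genes tested. The median of the 17 was -1.59 against 0.01 for all genes, and 14 did not overlap, against 26.7%. Here too, a member with few counts in treated mice could pass the filter only through untreated mice. Heatr1 had the lowest fold change. It stood at 54.7, 23.4, 29.1 and 29.9 CPM without and 9.61, 3.34 and 5.4 CPM with treatment, and all treated libraries lay below all untreated ones (-2.24 ± 0.43, adjusted p = 0.0159). Nop56 fell from a mean of 22.3 ± 8.5 (SD, n = 4) to one of 4.51 ± 0.721 CPM (SD, n = 3), also without overlap (-2.02 ± 0.36, adjusted p = 0.0116). Nolc1 stood at 34.8, 15.4, 13.9 and 21.5 CPM without and 5.12, 4.46 and 4.68 CPM with treatment (-1.87 ± 0.39, adjusted p = 0.0201).

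Tcof1 (-1.72 ± 0.44, adjusted p = 0.0403), Ddx21 (-1.59 ± 0.40, adjusted p = 0.036) and Utp18, a processome protein (-1.48 ± 0.39, adjusted p = 0.0441), were the others lower. Polr1a was higher, at 177, 136 and 233 CPM with treatment against 133, 122, 130.4 and 122 CPM without (0.81 ± 0.20, adjusted p = 0.0316). Its adjusted p was 0.0692 with upper-quartile scaling and 0.0639 with a fit over all groups, and it was 0.136 without replicate 3 of treated mice. Ncl (-0.86 ± 0.28, adjusted p = 0.079), Npm1 (-0.95 ± 0.54, adjusted p = 0.295), Pes1 (-1.22 ± 0.49, adjusted p = 0.148) and Nop2 (-0.57 ± 0.35, adjusted p = 0.329) did not pass the threshold. Nop58, Fbl, Dkc1, Polr1b, Bop1 and Gnl3 did not pass the filter. Their levels were 18.3, 6.47, 6.1 and 9.31 CPM without and 5.76, 3.34 and 3.24 CPM with treatment for Nop58, and 12.2, 8.96, 6.44 and 8.99 and 4.48, 1.11 and 3.6 CPM for Bop1, without overlap for either.

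The count of 7 called rested on single libraries and on the settings. It was 4 without replicate 1 of untreated mice, 2 without replicate 4 of untreated mice, and 3 and 1 without replicates 2 and 3 of treated mice. DESeq2 called 12 at the main threshold. At the thresholds of the study (adjusted p under 0.001 and at least 2-fold) none of the 17 passed. These thresholds were put on the edgeR results, while the study used them with DESeq2. Of 8 macrophage genes tested 7 were lower with treatment in these cells, of 7 monocyte genes 6 were lower, and of 10 neutrophil genes 6 were higher. The erythroid list stood at 2.43 to 3.73 without and 0.06 to 0.50 with treatment, and the dendritic cell list at 1.77 to 2.37 and 0.24 to 0.55. The part of these cells, and of the fewer genes detected in the treated libraries, in the fall was not tested.

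In the other populations no member passed the test with treatment. In tumor PMN-MDSC 0 of 32 were called, against 2.29% of all genes higher and 1.07% lower, 4 had an unadjusted p under 0.05, and the median was -0.22. In splenic M-MDSC 0 of 35 were called, against 10.7% and 8.96%, 2 had an unadjusted p under 0.05, and the median was -0.01. In tumor M-MDSC 0 of 34 were called, against 1.82% and 1.06%, 1 had an unadjusted p under 0.05, and the median was -0.20. DESeq2 called 0 in each of the 3 populations. Treated tumor M-MDSC include replicate 2, with the low Ly6c2 and high Adgre1 given above. In splenic M-MDSC Nop56 stood at 42.7, 38.6, 52.6 and 49.8 CPM without and 38.3, 40.2, 52.3 and 64.1 CPM with treatment (0.16 ± 0.19, adjusted p = 0.598), Heatr1 changed by -0.10 ± 0.12, adjusted p = 0.614, and Polr1a by 0.31 ± 0.20, adjusted p = 0.329. In tumor PMN-MDSC the same 3 genes changed by 0.11 ± 0.18, adjusted p = 0.789, by -0.57 ± 0.31, adjusted p = 0.358, and by 0.10 ± 0.30, adjusted p = 0.894. In tumor M-MDSC Ncl stood at 393, 377, 593 and 1213 CPM without and 497, 528 and 593 CPM with treatment, with untreated replicate 4 far above the rest (-0.36 ± 0.41, adjusted p = 0.691).

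Whether these treatment effects differed was tested by interaction terms. Between PMN-MDSC and M-MDSC in spleen, 10 of 32 members tested had a lower effect in PMN-MDSC and 0 a higher one, against 6.45% and 4.41% of all genes tested, with a median difference of -1.44 against 0.02. Nop56 had the lowest adjusted p (-2.10 ± 0.37, adjusted p = 0.00468), followed by Heatr1 (-2.09 ± 0.38, adjusted p = 0.00504) and Nolc1 (-2.03 ± 0.40, adjusted p = 0.00749). Ddx21 (-1.68 ± 0.38, adjusted p = 0.0142), Nop14, a processome protein (-1.88 ± 0.42, adjusted p = 0.0143), Tcof1 (-1.88 ± 0.45, adjusted p = 0.018), Mybbp1a (-1.83 ± 0.49, adjusted p = 0.0283) and Utp18 (-1.37 ± 0.38, adjusted p = 0.0326) were also called. Noc3l (adjusted p = 0.0205) and Fbl (adjusted p = 0.0338) passed with 1 and 2 counts in the treated PMN-MDSC libraries, so no fold change is given for them. Both passed the filter through the other groups and are counted in the 10 and in the median. Polr1a was not called (0.58 ± 0.28, adjusted p = 0.194). The count was 20 without replicate 3 of splenic PMN-MDSC of untreated mice, 6 without replicate 3 of treated mice, 17 with DESeq2, 9 without replicate 1 of untreated mice and 11 without replicate 4 of splenic M-MDSC of treated mice. The marker lists that moved with treatment in splenic PMN-MDSC are those given above.

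Between tumor and spleen in PMN-MDSC, 5 of 25 members tested had a higher effect in tumor and 0 a lower one, against 3.17% and 0.336% of all genes tested, with a median difference of 1.22 against 0.11. They were Nop56 (2.16 ± 0.35, adjusted p = 0.00687), Nolc1 (1.65 ± 0.39, adjusted p = 0.0304), Nop14 (1.77 ± 0.44, adjusted p = 0.0362), Tcof1 (1.83 ± 0.46, adjusted p = 0.0381) and Noc3l (adjusted p = 0.0416). Noc3l, nearly without counts in treated splenic PMN-MDSC, passed the filter through the other groups and is counted in the 5 and in the median. Both interactions share the splenic PMN-MDSC libraries. Leaving out 1 library gave 1 to 6 calls here, with 3 without replicate 1 of splenic PMN-MDSC of untreated mice. Only 1 was called without untreated tumor replicate 1, 2 or 3, treated tumor replicate 1 or 2, or treated spleen replicate 2 or 3, and 2 without untreated tumor replicate 4. Between tumor and spleen in M-MDSC 0 of 35 members were called, against 0.229% higher and 0.561% lower, with 1 unadjusted p under 0.05. Between PMN-MDSC and M-MDSC in tumor 0 of 33 were called, against 0% and 0.0239%, with 0 unadjusted p under 0.05. DESeq2 called 0 members in both.

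Bulk tumor, which mixes tumor cells with all other cells of the tissue, was compared with MDSC from tumors of untreated mice. Against tumor PMN-MDSC 23 of 35 members were higher and 3 lower in bulk tumor, against 36.1% and 33.3% of all genes tested, with a median of 0.98 against 0.09. Against tumor M-MDSC 19 were higher and 5 lower, against 38.2% and 31%, with a median of 0.82 against 0.17. The 2 comparisons share the bulk libraries, and leaving out 1 library gave 23 to 28 and 21 to 27 calls. Nop14 stood highest, at 362, 468, 183 and 135 CPM in bulk tumor against 36.4, 39, 40.4 and 50.7 CPM in tumor PMN-MDSC (2.50 ± 0.39, adjusted p = 0.000222) and 35.2, 31.7, 37.2 and 105 CPM in tumor M-MDSC (2.37 ± 0.48, adjusted p = 0.00106). Ncl stood at 4306, 4111, 2168 and 1638 CPM in bulk tumor against 463, 416, 613 and 625 CPM in tumor PMN-MDSC (2.25 ± 0.33, adjusted p = 8.54e-05, and 2.10 ± 0.43, adjusted p = 0.00107, against M-MDSC).

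Wdr43, a processome protein, was higher than in PMN-MDSC by 2.13 ± 0.20, adjusted p = 2.11e-06, and Noc3l was higher than in M-MDSC by 2.10 ± 0.37, adjusted p = 0.000347. Among the others higher against PMN-MDSC were Npm1 (1.98 ± 0.19, adjusted p = 2.65e-06), Nop58 (1.96 ± 0.22, adjusted p = 9.79e-06), Dkc1 (1.66 ± 0.24, adjusted p = 7.8e-05), Polr1a (1.57 ± 0.25, adjusted p = 0.000131), Nop56 (1.38 ± 0.17, adjusted p = 1.99e-05) and Nolc1 (1.35 ± 0.25, adjusted p = 0.000428). Polr1b (0.81 ± 0.31, adjusted p = 0.0341), Pes1 (0.89 ± 0.22, adjusted p = 0.00347), Gnl3 (1.29 ± 0.28, adjusted p = 0.00163) and Nop2 (1.04 ± 0.26, adjusted p = 0.00398) were higher as well. Lower than in PMN-MDSC were Heatr1, at 80.5, 74, 69.9 and 78.3 CPM in bulk tumor (-1.06 ± 0.16, adjusted p = 7.74e-05), Imp4 (-0.98 ± 0.20, adjusted p = 0.00104) and Nol6 (-0.49 ± 0.20, adjusted p = 0.0476). Lower than in M-MDSC were Heatr1 (-1.66 ± 0.16, adjusted p = 2.55e-06), Noc4l (-1.43 ± 0.33, adjusted p = 0.00204), Rrp9 (-0.86 ± 0.31, adjusted p = 0.0255), Bop1 (-0.66 ± 0.24, adjusted p = 0.0281) and Fbl (-0.84 ± 0.24, adjusted p = 0.00783). Bop1 and Fbl were not called against PMN-MDSC (adjusted p = 0.137 and 0.0659). The epithelial list stood at 6.00 to 6.52 in bulk tumor against 2.47 to 4.49 in tumor PMN-MDSC and 1.57 to 3.69 in tumor M-MDSC, and the fibroblast list at 4.95 to 5.24 against 1.48 to 2.28 and 0.15 to 1.82, and their part was not tested. Upper-quartile scaling moved the median of all genes from 0.09 to 0.39 and from 0.17 to 0.38 in these comparisons, and from -0.11 to -0.44 between splenic PMN-MDSC and M-MDSC of treated mice.

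Other genes of the pathway, from lists that hold none of the 35 members, were counted in the same fits. Splenic PMN-MDSC of untreated mice had 29 of 35 other large subunit factors lower than M-MDSC, 20 of 29 other small subunit factors, 5 of 6 other snoRNP factors, 5 of 8 other RNA polymerase I factors and 6 of 9 RNA exosome genes, with 0 higher in each, against 33.4% of all genes lower. In treated mice 31 of 35, 25 of 29, 4 of 6, 2 of 8 and 6 of 9 were lower, against 32.4% of all genes, and Utp14a (0.55 ± 0.21, adjusted p = 0.0462) and Ttf1, an rDNA termination factor (0.68 ± 0.19, adjusted p = 0.0164), were higher. The lowest in untreated mice included Sdad1 (-2.23 ± 0.38, adjusted p = 0.000788) and Nifk (-1.87 ± 0.27, adjusted p = 0.000258) of the large subunit and Nufip1 of snoRNP assembly (-2.09 ± 0.29, adjusted p = 0.000198). Rrn3, the factor that brings RNA polymerase I to the promoter, was lower in both (-1.46 ± 0.34, adjusted p = 0.00409, and -3.07 ± 0.46, adjusted p = 0.000752).

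In PMN-MDSC of untreated mice the same lists had 18 of 27, 16 of 22, 5 of 6, 1 of 6 and 3 of 6 higher in tumor than in spleen, against 29.4% of all genes. Lower there were Ttf1 (-0.74 ± 0.19, adjusted p = 0.00627), the rDNA factor Ubtf (-0.54 ± 0.16, adjusted p = 0.0128) and Exosc5 of the exosome (-0.88 ± 0.26, adjusted p = 0.0146). In treated mice 17 of 25, 17 of 24, 5 of 6, 1 of 7 and 2 of 6 were higher, against 28.2% of all genes, Rsl1d1 by 4.01 ± 0.53, adjusted p = 0.000514, and Ttf1 (-1.33 ± 0.24, adjusted p = 0.00221) and Utp14a (-0.73 ± 0.23, adjusted p = 0.0244) were lower. In M-MDSC of untreated mice 1 of 36, 3 of 31, 3 of 7, 1 of 9 and 1 of 9 were higher in tumor, against 15.7%, and Wdr3 (-0.72 ± 0.15, adjusted p = 0.00406), Ttf1 (-0.70 ± 0.18, adjusted p = 0.0137) and Exosc5 (-0.82 ± 0.21, adjusted p = 0.0114) were lower. In M-MDSC of treated mice Nufip1 was higher in tumor (1.13 ± 0.26, adjusted p = 0.0409) and 0 other genes of the 5 lists were called, against 5.11% of all genes higher. With treatment, Ddx10 (-2.74 ± 0.56, adjusted p = 0.0192) was lower among 14 other small subunit factors tested and Las1l (-1.41 ± 0.36, adjusted p = 0.0381) among 20 other large subunit factors in splenic PMN-MDSC, against 5.52% of all genes lower, and 0 genes of the other 3 lists were called. In splenic M-MDSC Rrp7a (0.47 ± 0.14, adjusted p = 0.0421) was higher with treatment among 32 other small subunit factors, Exosc9 (0.53 ± 0.13, adjusted p = 0.0168) higher and Exosc5 (-0.63 ± 0.19, adjusted p = 0.0471) lower among 11 exosome genes, and Sdad1 (-0.64 ± 0.13, adjusted p = 0.00733) lower among 37 other large subunit factors, against 10.7% of all genes higher and 8.96% lower. In tumor PMN-MDSC Mdn1 was lower (-1.0 ± 0.24, adjusted p = 0.0461) among 37 other large subunit factors, against 1.07% of all genes, and in tumor M-MDSC 0 genes of the 5 lists were called, against 1.82% higher and 1.06% lower. The treatment effect in spleen was lower in PMN-MDSC than in M-MDSC for 10 of 35 other large and 4 of 28 other small subunit factors and 2 of 6 other snoRNP factors, Nufip1 and Ruvbl1, against 6.45% of all genes. It was higher for Utp14a of the small subunit (0.92 ± 0.24, adjusted p = 0.0256) and Taf1d of RNA polymerase I (0.91 ± 0.20, adjusted p = 0.0136), against 4.41% of all genes. Between tumor and spleen in PMN-MDSC the effect was higher in tumor for 3 of 28 other large and 2 of 24 other small subunit factors and lower for 0, against 3.17% of all genes higher. Between PMN-MDSC and M-MDSC of untreated tumors Krr1 was higher (0.69 ± 0.19, adjusted p = 0.0311) and Ltv1 lower (-0.99 ± 0.24, adjusted p = 0.0165) among 26 other small subunit factors tested, Sdad1 lower (-0.63 ± 0.17, adjusted p = 0.0272) among 33 large subunit factors and Taf1d lower (-1.17 ± 0.15, adjusted p = 0.000352) among 7 RNA polymerase I factors, with 0 called among 6 snoRNP factors and 7 exosome genes, against 7.25% of all genes higher and 5.73% lower.

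In bulk tumor against tumor PMN-MDSC 26 of 37 other large subunit factors, 19 of 32 other small subunit factors, 5 of 13 other snoRNP factors, 5 of 11 other RNA polymerase I factors and 7 of 13 RNA exosome genes were higher, against 36.1% of all genes. Las1l (3.27 ± 0.28, adjusted p = 7.93e-07) and Esf1 (2.63 ± 0.26, adjusted p = 2.96e-06) were the highest of the subunit lists. Lower, as were 33.3% of all genes, were Ddx51 (-1.12 ± 0.30, adjusted p = 0.00498), Ddx54 (-1.07 ± 0.20, adjusted p = 0.000612) and Nop9 (-0.85 ± 0.26, adjusted p = 0.0111) of the subunit lists, Pih1d1 (-0.97 ± 0.27, adjusted p = 0.00655) and Nufip1 (-0.81 ± 0.33, adjusted p = 0.0451) of the snoRNP list, Taf1b (-0.93 ± 0.31, adjusted p = 0.0196) and Polr2e (-0.83 ± 0.23, adjusted p = 0.00618) of the RNA polymerase I list, and Exosc5 (-1.01 ± 0.29, adjusted p = 0.00771). Against tumor M-MDSC 23 of 37, 15 of 32, 5 of 12, 3 of 11 and 7 of 13 were higher in the same order of lists, against 38.2% of all genes. Lower there, as were 31% of all genes, were Ddx54 (-1.52 ± 0.16, adjusted p = 5.49e-06), Ddx51 (-0.88 ± 0.32, adjusted p = 0.0288) and Sdad1 (-0.46 ± 0.17, adjusted p = 0.0333) of the large subunit, Nop9 (-1.16 ± 0.33, adjusted p = 0.0082), Tbl3 (-1.08 ± 0.31, adjusted p = 0.00852), Ltv1 (-0.83 ± 0.24, adjusted p = 0.00959) and Utp14a (-0.70 ± 0.23, adjusted p = 0.0189) of the small subunit, Pih1d1 (-1.36 ± 0.27, adjusted p = 0.000765), Nufip1 (-1.03 ± 0.28, adjusted p = 0.00641), Taf1b (-1.48 ± 0.27, adjusted p = 0.000405), Polr2e (-1.06 ± 0.23, adjusted p = 0.00151) and Exosc5 (-1.19 ± 0.26, adjusted p = 0.0015).

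The Myc network, whose dimers bind the CACGTG letters printed above, was described beside the members. Myc stood at 10.9, 3.49, 4.07 and 1.61 CPM in splenic PMN-MDSC of untreated and 0.64, 0.371 and 1.44 CPM in those of treated mice, and at 11.6, 2.32, 7.86 and 8.57 and 12.6, 7.28, 15.9 and 35.8 CPM in splenic M-MDSC. It did not pass the filter in untreated spleens and was lower in PMN-MDSC of treated spleens (-3.77 ± 0.74, adjusted p = 0.00283). From spleen to tumor, Myc was higher in PMN-MDSC, at 35.2, 28.2, 28.4 and 18 CPM in untreated tumors (2.28 ± 0.45, adjusted p = 0.00155) and 19.7, 23.2, 12.3 and 9.04 CPM in treated tumors (3.76 ± 0.55, adjusted p = 0.00078). It was also higher in tumor M-MDSC of untreated mice (1.64 ± 0.38, adjusted p = 0.00741) and in bulk tumor, at 87.5, 79.8, 57.7 and 59 CPM (1.09 ± 0.23, adjusted p = 0.00133, against PMN-MDSC and 1.64 ± 0.28, adjusted p = 0.000253, against M-MDSC). The Max partner Mxd1, a repressor that competes with Myc, was at 1881, 2879, 2091 and 2151 CPM in splenic PMN-MDSC of untreated mice against 63.8, 57.6, 81.1 and 81.6 CPM in splenic M-MDSC (5.37 ± 0.23, adjusted p = 5.98e-07).

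Mxi1 (1.89 ± 0.20, adjusted p = 3.69e-05), Max (1.51 ± 0.15, adjusted p = 3.24e-05), Mnt (0.78 ± 0.15, adjusted p = 0.0014) and Mxd4 (0.51 ± 0.16, adjusted p = 0.0198) were also higher in splenic PMN-MDSC of untreated mice. In treated mice the same 5 genes were higher, Mxd1 by 4.63 ± 0.26, adjusted p = 6.28e-05, Mxi1 by 2.38, Max by 2.08, Mxd4 by 1.09 and Mnt by 1.04 (adjusted p = 0.000191, 0.000182, 0.00531 and 0.00297). Mycl, at 1.28, 0 and 0 CPM in PMN-MDSC and 15, 37.6, 7.09 and 3.98 CPM in M-MDSC of treated spleens, was lower (adjusted p = 0.0104). From spleen to tumor in PMN-MDSC of untreated mice, Max (-1.35 ± 0.18, adjusted p = 0.00016), Mlx (-1.05 ± 0.21, adjusted p = 0.00151), Mxi1 (-0.92 ± 0.22, adjusted p = 0.00416), Mxd1 (-0.91 ± 0.27, adjusted p = 0.0128), Mnt (-0.82 ± 0.20, adjusted p = 0.00532) and Mxd4 (-0.68 ± 0.20, adjusted p = 0.0123) were lower while Myc was higher. In treated mice Max (-1.65, adjusted p = 0.000861), Mxi1 (-1.58, adjusted p = 0.00103), Mxd1 (-1.24, adjusted p = 0.0259), Mlx (-0.99, adjusted p = 0.0146) and Mxd4 (-0.95, adjusted p = 0.00661) were lower.

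Max rose with treatment in splenic PMN-MDSC (0.85 ± 0.20, adjusted p = 0.0285), and Mxd1 rose in splenic M-MDSC (1.47 ± 0.17, adjusted p = 0.000488), where Mnt fell (-0.50 ± 0.13, adjusted p = 0.0221) and no member was called. In tumor M-MDSC the difference in Mxd1 with treatment was -0.47 ± 0.35, adjusted p = 0.509, and it was lower than in splenic M-MDSC (-1.92 ± 0.39, adjusted p = 0.0383). In untreated tumors Mxd1 was higher in PMN-MDSC than in M-MDSC (1.06 ± 0.19, adjusted p = 0.00296). In tumor M-MDSC of untreated mice Mxd1 was 744, 641, 672 and 601 CPM, higher than in spleen (3.48 ± 0.15, adjusted p = 2.8e-08), Mxi1 was higher (1.01 ± 0.19, adjusted p = 0.00184), Mxd4 was lower (-0.55 ± 0.19, adjusted p = 0.0475), and Myc was higher too. In treated mice Mxd1 was higher (1.53, adjusted p = 0.04997) and Mycl, at 0.421, 1.38 and 1.11 CPM in tumor M-MDSC, was lower (adjusted p = 0.0493). In bulk tumor Mxd1 stood at 20.6, 23.1, 26.3 and 25 CPM (-6.12 ± 0.25, adjusted p = 5.93e-09, against PMN-MDSC and -4.99 ± 0.19, adjusted p = 8.13e-09, against M-MDSC), the lowest of all groups. Max (-1.49 and -0.87), Mnt (-1.79 and -1.65) and Mxi1 (-2.31 and -2.21) were lower in bulk tumor than in both populations, at adjusted p of 1.64e-05 and 0.00455, 1.38e-05 and 3.51e-05, and 6.36e-07 and 5.17e-06, and Mga was higher than in M-MDSC (0.66 ± 0.14, adjusted p = 0.00154). Mycn, at 12, 7.95, 21.9 and 3.78 CPM in bulk tumor, held at most 1.82 CPM in any tumor MDSC library of untreated mice and was called higher (adjusted p = 0.00146 and 0.00025).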

How the data were processed

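Total RNA of sorted cells and lysed tumors had been depleted of ribosomal RNA and made into strand-specific libraries with PCR and no molecular identifiers. The authors mapped reads to the mouse genome (GRCm38) with ContextMap and BWA, counted them per gene by strand with featureCounts (Subread 1.4.6-p3), and deposited 1 table of raw counts for 53379 genes. The 35 columns were matched to groups by name, and the replicate numbers used here only name libraries. 1 library of 10 counts was left out (minimum 1000), so 34 were used. Replicates were compared over 48 pairs, 0 were identical, and their chi-square statistics were 6.88 to 55.8 times their degrees of freedom. Counts of shallow libraries set the precision: 3 counts over splenic PMN-MDSC of treated mice come to 0.427 CPM, a limit for counting error only.

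Each comparison was fitted on its own libraries with edgeR 4.0.16 (R 4.3.3, limma 3.58.1) on counts as deposited, for genes with a mean of 25 counts or more, with TMM scaling, a robust quasi-likelihood F-test (two-sided), and Benjamini-Hochberg adjustment over all genes tested. Interactions used the 4 groups concerned. Each SE was computed as the absolute log2 fold change divided by the square root of F. The mean log2(CPM + 1) of a list is a description and was not tested. FPKM was computed here from counts and exon lengths of the GENCODE annotation. Named in each comparison were the 3 highest and 3 lowest members among those called without overlap, 14 members by role (Ncl, Npm1, Fbl, Nop56, Nop58, Dkc1, Nolc1, Polr1a, Polr1b, Heatr1, Pes1, Bop1, Gnl3 and Nop2) where informative, Myc, called genes of the Myc network, and ends of the other lists among their called genes. The fits of treatment in PMN-MDSC were tested on simulated data. The members, lists and tests were chosen with earlier results of these data known. Alternatives were DESeq2 1.42.0, RLE and upper-quartile scaling, no filter, the thresholds of the study, a fit over all groups, and leaving out each library. The thresholds of the study were put on edgeR results. The full genotype of the tumor cell line is not reported here.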

Additional observations from a re-analysis of the deposited data

Results flagged for a closer look

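Among 252 sets of values of 4 libraries of a group (35 members and their mean level), 16 had a library whose distance from its nearest neighbour took up more of the range than Dixon's 95% critical value, which chance gives in about 1 in 20. In splenic PMN-MDSC of untreated mice, replicate 1 was far above the other 3 for Ddx21 (89.7 CPM), Nol10 (11.7 CPM), Nop14 (23.6 CPM), Noc2l (71.9 CPM) and Noc3l (13.5 CPM), and replicate 2 for Nop2 (25.9 CPM). Replicate 1 was the library with the most macrophage and monocyte message of its group. In tumor M-MDSC of untreated mice, replicate 4, the shallowest library with 793070 counts, was far below the others for Utp20 (42.9 CPM), Nol6 (17.7 CPM), Imp4 (7.57 CPM), Bop1 (17.7 CPM) and Noc3l (8.83 CPM) and far above for Nop14 (105 CPM). In splenic M-MDSC, replicate 4 of treated mice was highest for the mean level of the 35 members (5.45) and for Wdr12 (18.1 CPM), replicate 3 of treated mice lowest for Pes1 (58.4 CPM), and replicate 3 of untreated mice highest for Nop2 (33.5 CPM). Without replicate 4 of tumor M-MDSC of untreated mice, 3 members were called between PMN-MDSC and M-MDSC of untreated tumors (4 with it), 10 between tumor and spleen in M-MDSC (8), and 27 between bulk tumor and M-MDSC (24). Without replicate 2 of splenic PMN-MDSC of untreated mice, 26 were called against splenic M-MDSC (29), 27 between tumor and spleen (25), 6 with treatment (7), and 4 (5) and 15 (10) in the interactions of tumor with spleen and of PMN-MDSC with M-MDSC. Without replicate 3 of splenic M-MDSC of untreated mice, 24 were called between the splenic populations of untreated mice (29) and 6 between tumor and spleen (8). Without replicate 3 of those of treated mice, 26 were called between the splenic populations of treated mice (28). Leaving out replicate 1 of splenic PMN-MDSC of untreated mice or replicate 4 of splenic M-MDSC of treated mice is described with the comparisons.

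The effect of poly(I:C)c differed between populations for the following members by edgeR interaction terms. Between tumor and spleen in PMN-MDSC the adjusted p was 0.00687 for Nop56, 0.0304 for Nolc1, 0.0362 for Nop14, 0.0381 for Tcof1 and 0.0416 for Noc3l, with an effect higher in tumor in each. Between PMN-MDSC and M-MDSC in spleen the adjusted p was 0.00468 for Nop56, 0.00504 for Heatr1, 0.00749 for Nolc1, 0.0142 for Ddx21, 0.0143 for Nop14, 0.0180 for Tcof1, 0.0205 for Noc3l, 0.0283 for Mybbp1a, 0.0326 for Utp18 and 0.0338 for Fbl, with an effect lower in PMN-MDSC in each.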

How the results depend on the processing

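No paired analysis was possible because the columns of the table carry a group and a running library number, which the labels do not tie to a mouse. Libraries that may share a mouse were fitted as independent. The count of members called with treatment in splenic PMN-MDSC (7) was 0 at the thresholds of the study, 15 with no filter, 12 with DESeq2 and 13 with a fit over all groups, and 1 to 6 when a library was left out. In splenic M-MDSC 1 was called with upper-quartile scaling, and leaving out a library gave 0 to 1 there and in tumor M-MDSC. The thresholds of the study were put on edgeR results throughout, while the study used them with DESeq2. At these thresholds, PMN-MDSC against M-MDSC gave 6 in untreated spleens (29 at the main threshold) and 0 in untreated tumors (4). Tumor against spleen gave 7 in PMN-MDSC (25) and 2 in M-MDSC (8) of untreated mice, and bulk tumor gave 13 against PMN-MDSC (26) and 12 against M-MDSC (24). A fit over all groups called 1 between PMN-MDSC and M-MDSC of untreated tumors, and leaving out a library 1 to 4. Between tumor and spleen M-MDSC, upper-quartile scaling called 5 in untreated mice and no filter 1 in treated mice, and leaving out a library gave 4 to 10 and 0 to 1. For the interactions, leaving out a library gave 1 to 6 between tumor and spleen PMN-MDSC (5) and 6 to 20 between splenic PMN-MDSC and M-MDSC (10), for which DESeq2 called 17. The mean level of the 35 genes was 2.68 with TMM scaling and 1.73 with a pseudocount of 0.1 in splenic PMN-MDSC of treated mice (2.34), and 5.06 with TMM scaling and 5.10 as a median in splenic M-MDSC of untreated mice (5.29). As a median it was 4.95 in splenic M-MDSC of treated mice (5.22), 5.22 in tumor M-MDSC of untreated mice (5.43) and 5.07 in those of treated mice (5.31). The cause was not tested. The members called in the main fits gave 2601 refitted values. Of these, 2308 kept their call and 0 reversed. Another 293 no longer passed, 170 of them with a library left out and 96 at the thresholds of the study. Members called only in a refit are not among these values.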

Other observations

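The protein-coding neighbours of Polr1a were looked up after its values had been seen. St3gal5, the next one downstream and on the same strand, stood at 128, 134, 268 and 179 CPM in splenic PMN-MDSC of untreated and 392, 193 and 193 CPM in those of treated mice, above its 9.1, 35.2, 19.6 and 20.4 CPM in tumor PMN-MDSC, 22.7, 10.2, 40.1 and 33.8 CPM in splenic M-MDSC and 11.5, 12.1, 14.4 and 18.9 CPM in tumor M-MDSC of untreated mice. Ptcd3, upstream on the other strand, stood at 17.5, 6.47, 9.49 and 8.99 CPM in splenic PMN-MDSC and 20.0, 19, 33.9 and 28.1 CPM in splenic M-MDSC of untreated mice. Thus St3gal5 had its highest MDSC levels in splenic PMN-MDSC like Polr1a, and Ptcd3 did not. The table counts reads per gene, so where along Polr1a its reads lay was not analysed here.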
